A study of Mus musculus with 22 samples.

Results

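A group of 7 genes outside the hormone set was followed, chosen because their RNA was strongly or repeatedly lower in endocrine cells without ISL1: *Aqp4*, *AC137585.3*, *Atp8b1*, *Dapl1*, *Csf1*, *Sorcs1* and *Ap1s2*. These 7 genes were among 27124 genes counted at E14.5 and 27504 counted at P9. No numerical threshold defined the choice, and the *Isl1CKO* values at both ages had been used to make it. The differences between *Isl1CKO* and control cells are therefore given here as a description, without a test, for these genes. The group was put together as genes lost without *Isl1*, and the values did not bear this out for every member. *AC137585.3* was close to 0 at both ages and *Aqp4* at E14.5, *Dapl1* and *Csf1* were lower at P9 and not at E14.5, *Sorcs1* was lower at E14.5 and not at P9, and *Atp8b1* and *Ap1s2* were lower by at most 1.77-fold at either age.

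The libraries came from bulk RNA-seq of 100 tdTomato+ cells each, sorted from the mouse pancreas. The *Isl1CKO* genotype was Isl1 f/f; Neurod1Cre; TomatoAi14 (5 libraries at E14.5 and 6 at P9). The control genotype was Isl1 f/+; Neurod1Cre; TomatoAi14 (6 libraries at E14.5 and 5 at P9), although the sample records call it WT, so every library came from cells with the Neurod1-driven Cre and the tdTomato reporter, and the controls lacked 1 *Isl1* allele in the recombined cells. Mice were males and females on a C57BL/6 background. Cre followed the *Neurod1* promoter, so deletion and sorting covered all endocrine types that had expressed *Neurod1*, not a single islet cell type. Cells at E14.5 were released with trypsin alone, and those taken at P9 to P10 (called P9) after collagenase perfusion and then trypsin, so age and dissociation cannot be told apart. The study calls the libraries biological replicates and counts embryos at E14.5, while the animals behind each library at P9 are not given in the sources used here. The p-values measure the spread between these libraries.

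ISL1 is a LIM-homeodomain transcription factor of endocrine cells in the pancreas, where it acts in maturation and maintenance of hormone-producing cells. The chosen genes do not form a known pathway. AQP4 is a water channel, best known from the end-feet of brain astrocytes. ATP8B1 is a P4-ATPase, a flippase that moves phospholipids between the leaflets of a membrane, and is known for inherited cholestasis in the liver. *AC137585.3* is a long intergenic non-coding RNA gene beside *Atp8b1*. CSF1 is the secreted ligand of the CSF1R receptor and sustains macrophages. SORCS1 is a sorting receptor with a VPS10 domain. AP1S2 is a small subunit of the AP-1 clathrin adaptor, which buds vesicles at the trans-Golgi network, where secretory granules also form. DAPL1 is a small protein related to the death-associated protein DAP, known from epithelia and from dormant ribosomes of the egg.

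The total count per library was 11299969 to 13580985 at E14.5, 11195637 to 13435089 in controls at P9 and 8477482 to 11439791 in *Isl1CKO* cells at P9. *Ins2* alone took 31.2% to 39.8% of the counts in controls at P9 and 7.54% to 18.5% in *Isl1CKO* cells, so the scaling of the libraries weighs on every P9 value. Levels are given as CPM, the counts of a gene per 1e6 counts of its library, with library sizes scaled by TMM, a method that sets the bulk of genes equal between libraries. All 8 endocrine markers (*Chga*, *Chgb* and others) were detected in all 4 groups, with a sum of at least 10130 CPM in every library. *Isl1* itself was counted over the whole gene, including exons kept after recombination, so its count is no direct check of the labels. It fell at E14.5 (log2 fold change -0.48, SE 0.08; edgeR adjusted p = 0.00633) and rose at P9 (1.08, SE 0.21; edgeR adjusted p = 0.00813), where 1 *Isl1CKO* library lay among the controls. In bulk RNA, fewer cells of a type and less RNA per cell cannot be told apart.

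Promoter windows from RefSeq on GRCm38.p6 span 250 bases before to 50 after the start. They are shown for 4 of the 7 genes, to let the starts of genes with different patterns be compared. Capitals mark the letters TAAT, the core read by many homeodomain proteins, CTAATG, a longer form known for ISL1, and CAGATG, an E-box form known for NEUROD1, each searched on both strands. The windows lie at chr2:59484403-59484702 on the plus strand for *Dapl1*, chr3:107760420-107760719 on the minus strand for *Csf1*, chr19:50678597-50678896 on the minus strand for *Sorcs1* and chrX:163908767-163909066 on the plus strand for *Ap1s2*.
Dapl1: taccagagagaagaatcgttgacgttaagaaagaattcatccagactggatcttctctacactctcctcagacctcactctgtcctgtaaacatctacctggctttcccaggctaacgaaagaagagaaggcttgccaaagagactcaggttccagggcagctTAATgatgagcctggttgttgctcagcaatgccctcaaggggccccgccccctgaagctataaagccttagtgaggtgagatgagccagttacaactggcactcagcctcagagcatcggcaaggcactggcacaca
Csf1: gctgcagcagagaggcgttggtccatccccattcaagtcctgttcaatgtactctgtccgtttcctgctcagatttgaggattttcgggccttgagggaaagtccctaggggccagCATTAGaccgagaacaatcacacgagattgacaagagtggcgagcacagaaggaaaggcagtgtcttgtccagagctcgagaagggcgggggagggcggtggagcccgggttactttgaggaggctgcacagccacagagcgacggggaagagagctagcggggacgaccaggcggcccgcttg
Sorcs1: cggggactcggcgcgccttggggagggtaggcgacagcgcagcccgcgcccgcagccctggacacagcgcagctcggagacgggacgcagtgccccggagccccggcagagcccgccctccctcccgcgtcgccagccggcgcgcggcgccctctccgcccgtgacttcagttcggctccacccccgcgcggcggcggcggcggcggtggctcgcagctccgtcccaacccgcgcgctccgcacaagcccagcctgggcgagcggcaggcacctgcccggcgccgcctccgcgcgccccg
Ap1s2: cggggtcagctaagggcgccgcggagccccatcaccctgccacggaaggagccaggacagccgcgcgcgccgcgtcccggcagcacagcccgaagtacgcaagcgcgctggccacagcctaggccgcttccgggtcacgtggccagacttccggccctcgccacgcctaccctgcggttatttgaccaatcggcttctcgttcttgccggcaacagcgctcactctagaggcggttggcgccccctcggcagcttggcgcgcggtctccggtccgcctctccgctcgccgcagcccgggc

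The *Dapl1* window held TAAT 87 bases before the start. The *Csf1* window held CTAATG on the opposite strand 134 bases before the start (printed CATTAG), and its single TAAT overlaps this match. None of these motifs was found in the *Sorcs1* and *Ap1s2* windows. No window was examined for *Aqp4*, *AC137585.3* and *Atp8b1*, so the comparison leaves these genes out. Among 32851 promoter windows of the same length, 58% held TAAT, 7.36% held CTAATG and 17.2% held CAGATG. The windows also differed in base composition. GC content was 51% for *Dapl1* and 58.7% for *Csf1*, near the median of 52.7% over all windows, and 80.7% for *Sorcs1* and 71.7% for *Ap1s2*, with 50 and 39 CpG pairs against a median of 7. *Dapl1* and *Csf1* had 5 and 16 such pairs.

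At E14.5, 6 of the 7 genes passed the filter on low counts, and *Dapl1* did not. In 5 of these 6 the *Isl1CKO* libraries were all lower than the lowest control, beside 1.29% of all 15960 genes tested, and nothing is read from this count because the contrast was used for the choice. At P9 all 7 passed, and in 6 the groups were separated in this way, beside 2.57% of 13964 genes. Only *Aqp4*, *AC137585.3*, *Atp8b1* and *Ap1s2* were separated in this direction at both ages. The share of all genes separated at both ages was not counted, so nothing is read from this either.

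**Figure D1:**
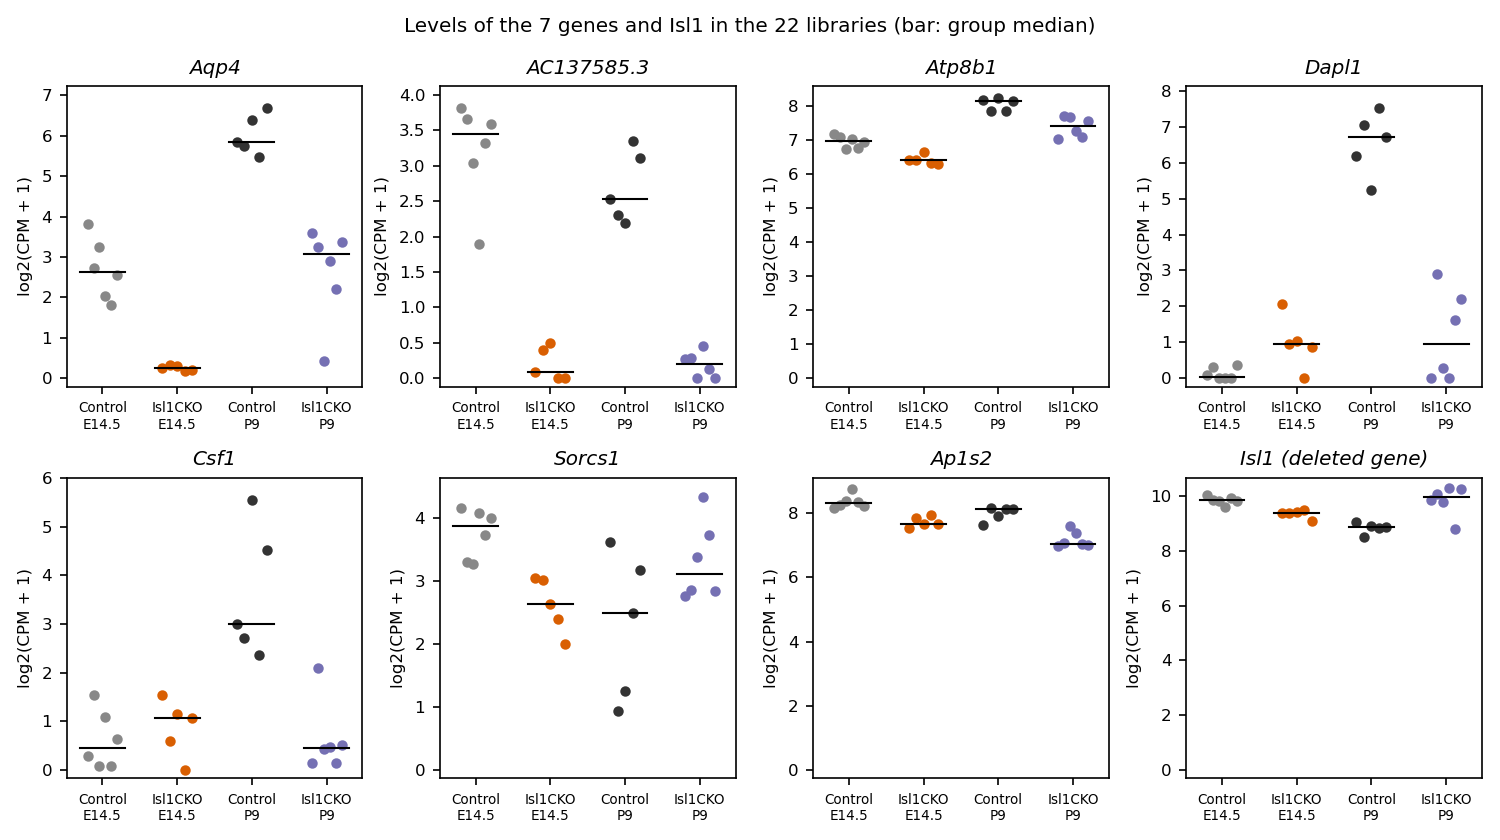
Each point is 1 library, plotted as log2(CPM + 1) for the 7 chosen genes and *Isl1* in the 4 groups, and the bar is the group median. *Aqp4* and *AC137585.3* sit near 0 in all 5 *Isl1CKO* libraries at E14.5, and *Dapl1* and *Csf1* are high only in the control libraries at P9.

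*Aqp4* (chr18:15389496-15410982, minus strand, GENCODE annotation on GRCm38) was scarce in controls at E14.5 and became far more abundant at P9. At E14.5 the 6 control libraries ranged from 2.50 to 13.1 CPM with a median of 5.26, and the 5 *Isl1CKO* libraries held 0.197, 0.251, 0.234, 0.127 and 0.163 CPM, or 2 to 4 counts each. The groups were far apart, and the fitted difference was -4.96 on the log2 scale (SE 0.55), 31.1-fold lower and the 5th lowest of all genes tested. With so few counts in the *Isl1CKO* libraries, the size of this difference depends on the fit. At P9 the control libraries held 56.8, 53.1, 82.4, 43.5 and 103 CPM, and the *Isl1CKO* libraries ranged from 0.343 to 11.1 CPM with a median of 7.55. The difference at P9 was -3.36 (SE 0.53), 10.3-fold lower. Thus *Aqp4* was not absent from *Isl1CKO* cells at P9: their mean of 6.59 CPM ± 4.0 (SD, n = 6) was similar to the 6.30 CPM ± 3.97 (SD, n = 6) of controls at E14.5. One *Isl1CKO* library at P9, library 3, held 3 counts where the other 5 held 36 to 109. An antisense gene, *AC133525.2*, overlaps *Aqp4* and the libraries do not mark strand, but it had only 9 counts over all controls and 15 over all *Isl1CKO* libraries at P9.

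*Atp8b1* and *AC137585.3* are neighbours on the chromosome that also carries *Aqp4*. The lincRNA gene *AC137585.3* (chr18:64693536-64700054, minus strand) lies 32.3 kb upstream of the start of *Atp8b1* (chr18:64528967-64661267, same strand). At E14.5 *AC137585.3* ranged from 2.73 to 13.1 CPM in controls with a median of 10.0, and the *Isl1CKO* libraries held 0.0657, 0.313, 0.410, 0 and 0 CPM. The control libraries at P9 held 4.75, 3.92, 3.58, 9.18 and 7.61 CPM, and the *Isl1CKO* libraries ranged from 0 to 0.377 CPM with a median of 0.155. The RNA was nearly undetected in *Isl1CKO* cells at either age, with 13 counts over 5 libraries at E14.5 and 8 counts over 6 libraries at P9. The fitted differences were -5.78 (SE 0.74) and -5.17 (SE 0.84), 55.0-fold and 35.9-fold lower, and with so few counts their size depends on the fit. It was the 2nd lowest of all genes tested at E14.5 and the 11th lowest at P9.

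*Atp8b1* was an abundant gene with a small difference. At E14.5 it ranged from 104 to 143 CPM in controls with a median of 124, and the *Isl1CKO* libraries held 83.9, 82.9, 98.5, 78.3 and 77.0 CPM. At P9 the control libraries held 286, 231, 299, 228 and 282 CPM, and the *Isl1CKO* libraries ranged from 129 to 207 CPM with a median of 169. All *Isl1CKO* libraries were lower at each age, by -0.55 (SE 0.10) at E14.5 and -0.66 (SE 0.16) at P9 on the log2 scale, a 1.46-fold and a 1.58-fold difference. The P9 value rests on the scaling: with total counts alone it was -0.02, while the median of all genes moved from 0.02 to 0.68. The ratio of both genes within a library does not depend on scaling. *AC137585.3* had 7.39 ± 2.7 counts (SD, n = 6) per 100 *Atp8b1* counts in controls at E14.5 and 0.174 ± 0.206 (SD, n = 5) in *Isl1CKO* cells, and at P9 the ratio was 2.26 ± 1.13 (SD, n = 5) and 0.0990 ± 0.0967 (SD, n = 6). At each age the ratio in *Isl1CKO* cells was thus far below that in controls.

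Genes around this pair were not chosen on their values and could be tested. Of the 6 other genes tested with a start within 500 kb, none changed at E14.5 (edgeR, adjusted p at least 0.240), and 1 changed at P9, *St8sia3*, a sialyltransferase gene, which rose (log2 fold change 1.16, SE 0.25; edgeR adjusted p = 0.0137). A pseudogene within *Atp8b1* on the same strand, *AC102268.2*, was too scarce to be tested in either comparison, with 78 counts in controls and 6 in *Isl1CKO* libraries at E14.5 and 55 and 36 at P9, and another overlapping gene, *AC102268.1*, held 46 and 35 counts at E14.5. Over all genes 1.43% changed at E14.5 (0.827% lower and 0.602% higher) and 4.81% at P9 (2.14% lower and 2.66% higher, 299 and 372 genes; 460 and 292 when the 8 hormone genes were left out of the totals, 151 and 3811 with total counts alone). The nearest tested gene on the *Atp8b1* side, *Nars*, a tRNA synthetase gene 12.3 kb away, differed by -0.05 (SE 0.11) and -0.27 (SE 0.16), both short of the threshold (edgeR adjusted p = 0.929 and 0.431). On the other side *A330084C13Rik*, 184.4 kb beyond *AC137585.3*, differed by -0.63 (SE 0.81) and 2.09 (SE 0.81; edgeR adjusted p = 0.850 and 0.174).

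**Figure D2:**
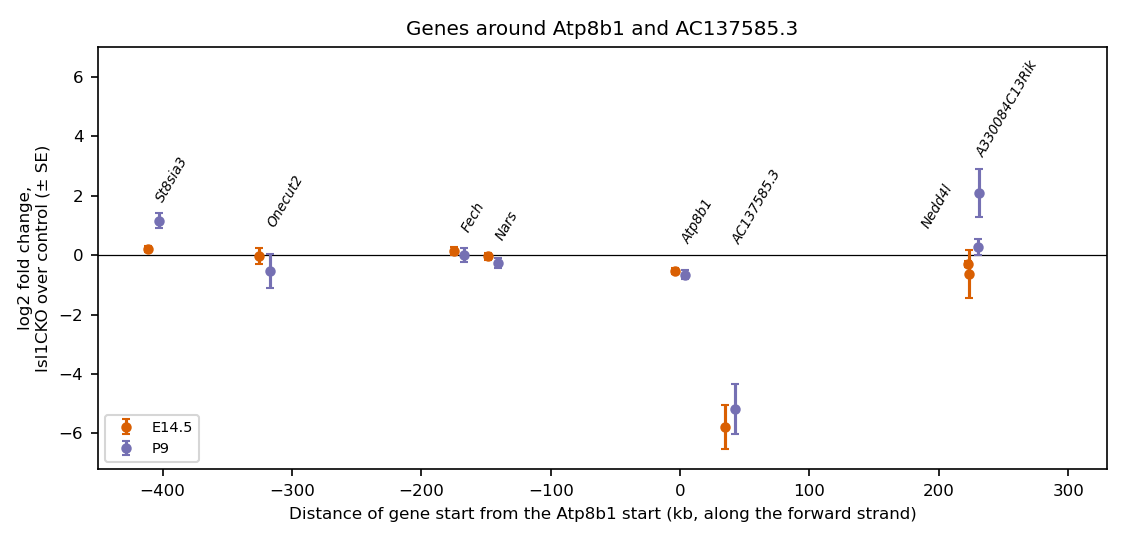
Log2 fold change (± SE) of *Isl1CKO* over control at E14.5 and P9 for each gene tested within 500 kb of *Atp8b1*, against the distance of its start from the *Atp8b1* start in kb, with the points of the 2 ages offset sideways. *AC137585.3* lies at -5.78 and -5.17, *Atp8b1* at -0.55 and -0.66, and *St8sia3* at 1.16 at P9.

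*Dapl1* (chr2:59484653-59505020, plus strand) was a gene of the postnatal cells. In controls at E14.5 it ranged from 0 to 0.305 CPM with a median of 0.0352, which was 10 counts over 6 libraries. The *Isl1CKO* libraries at E14.5 held 3.22, 0.940, 1.05, 0 and 0.813 CPM, so 4 of 5 lay above every control library and 1 had no count. The control libraries at P9 held 72.0, 132, 36.7, 183 and 105 CPM, and the *Isl1CKO* libraries ranged from 0 to 6.53 CPM with a median of 1.17. The fitted difference at P9 was -5.65 (SE 0.85), 50.1-fold lower. At E14.5 the difference pointed the other way, 3.44 (SE 1.14), from a fit without the filter and from few counts. The mean of *Isl1CKO* cells was 1.21 CPM ± 1.2 (SD, n = 5) at E14.5 and 2.08 CPM ± 2.62 (SD, n = 6) at P9, while the mean of controls went from 0.105 to 106 CPM.

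*Csf1* (chr3:107741048-107760469, minus strand) had a like course at a lower level. At E14.5 it ranged from 0.0582 to 1.90 CPM in controls with a median of 0.380, and the *Isl1CKO* libraries held 1.90, 0.502, 1.23, 0 and 1.08 CPM. The groups overlapped there, with a difference of 0.54 (SE 0.94). At P9 the control libraries held 6.99, 5.58, 46.2, 4.11 and 21.9 CPM, and the *Isl1CKO* libraries ranged from 0.10 to 3.26 CPM with a median of 0.36. Every *Isl1CKO* library was lower, by -4.45 (SE 0.96) or 21.9-fold. The difference was -5.90 without *Isl1CKO* library 2, the highest, and -3.63 without control library 3. The controls were uneven, since libraries 3 and 5 held 502 of their 615 *Csf1* counts.

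CSF1 is also made by connective tissue cells, and its receptor marks macrophages. The 7 mesenchyme markers listed (*Col1a1*, *Dcn* and others) summed to 9.92 to 86.2 CPM in controls and 4.39 to 31.7 CPM in *Isl1CKO* libraries at P9. The sum was 76.8 CPM in control library 3 and 12.6 CPM in control library 5. It was highest, at 86.2 CPM, in control library 4, which had the lowest *Csf1* of the controls (4.11 CPM). None of the 7 markers was at 0 in all libraries of a P9 group, and none of the 3 tested changed. The 10 macrophage markers summed to 37.0 to 87.9 CPM in controls and 11.9 to 61.6 CPM in *Isl1CKO* libraries at P9, most of it *C1qa*, and the defining marker *Adgre1* averaged 0.149 and 0.251 CPM. None of the 4 macrophage markers tested at P9 changed. The 9 markers of exocrine acinar cells summed to 60.4 to 1266 CPM in controls and 26.7 to 256 CPM in *Isl1CKO* libraries at P9. Control library 3 and *Isl1CKO* library 2 had the highest sums and also the most *Csf1* of their groups. Control library 5, next in *Csf1*, had 167 CPM, less than the 453 CPM of control library 1. None of the 7 acinar markers tested at P9 changed. The part of these cell types in the *Csf1* values was not tested.

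**Figure D3:**
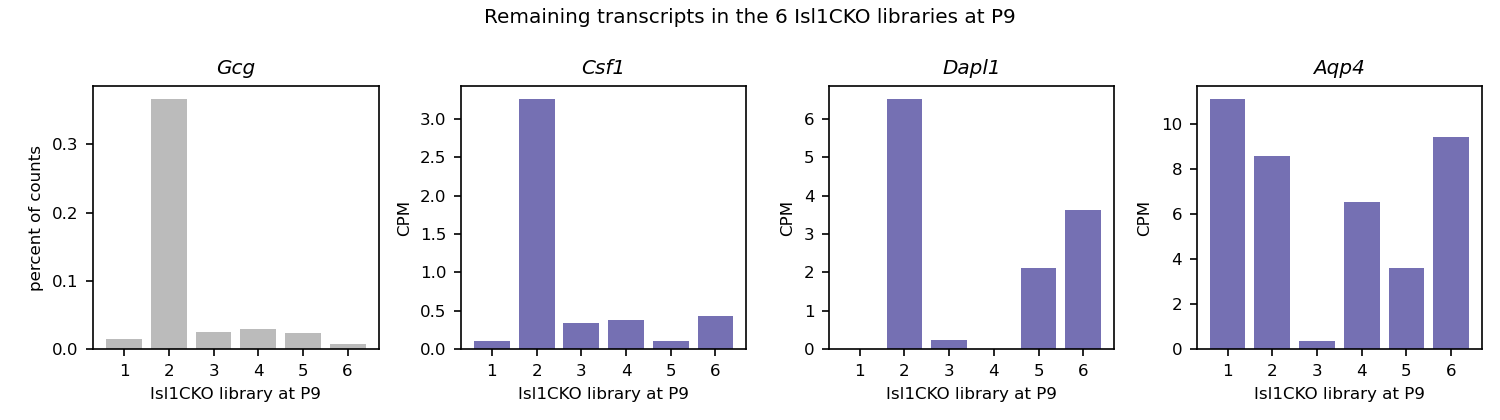
Bars give, for each of the 6 *Isl1CKO* libraries at P9, the share of *Gcg* in all counts (percent) and the CPM of *Csf1*, *Dapl1* and *Aqp4*. Library 2 is the highest for *Gcg* (0.367%), *Csf1* (3.26 CPM) and *Dapl1* (6.53 CPM), whereas *Aqp4* is spread over 5 libraries.

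*Isl1CKO* library 2 at P9 stood apart in more than *Csf1*. It also held the most *Dapl1* (58 counts) and *Gcg*, the glucagon gene of alpha cells, at 0.367% of counts beside a median of 0.0245% over the 6 libraries. Beyond library 2 the order of *Gcg* was not that of *Dapl1*. Library 6, with the least *Gcg* (851 counts), held 42 *Dapl1* counts, and library 4 (2551 *Gcg* counts) held 0. *Aqp4* was highest in library 1. Without library 2 the *Dapl1* difference was -6.39. Its *Ppy* and *Ghrl* transcripts, of PP and epsilon cells, summed to 8364 CPM beside a median of 606 CPM.

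Transcripts of islet cell types moved with the genotype beside these genes. The 9 alpha cell markers listed summed to 10945 to 21447 CPM in controls and 8429 to 11777 CPM in *Isl1CKO* cells at E14.5, and to 27820 to 106295 and 7442 to 10876 CPM at P9, with none at 0 in all libraries of a group. *Gcg* carried the lower sum, with means of 9205 and 674 CPM at E14.5 and 60635 and 932 CPM at P9, while *Ttr*, the transthyretin gene, rose from 3343 to 5795 CPM and from 3464 to 7293 CPM. Of the 9, 3 fell and 2 rose at E14.5, and 3 fell and 3 rose at P9. The 10 beta cell markers summed to 696275 to 975475 CPM in controls and 135890 to 338751 CPM in *Isl1CKO* cells at P9, where 8 fell and none rose, and at E14.5 *Pdx1* alone fell. Of 5 delta cell markers *Rbp4* fell at E14.5, and at P9 *Sst* fell (means of 94.4 and 0.0572 CPM) while *Hhex* rose. *Ppy* fell at P9, as did *Elavl4* and *Th* of 5 neuron markers, whose sum was 154 to 216 CPM in controls and 67.6 to 115 CPM in *Isl1CKO* cells. The part of these cell types in the values of the chosen genes was not tested. At E14.5 the *Isl1CKO* libraries held 1103 to 34924 *Gcg* counts and 2 to 4 *Aqp4* counts each, too few to rank the libraries by *Aqp4*.

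*Sorcs1* (chr19:50143299-50678646, minus strand) was lower at E14.5 and not at P9. At E14.5 it ranged from 8.65 to 16.9 CPM in controls with a median of 13.6, and the *Isl1CKO* libraries held 7.23, 7.08, 5.21, 4.25 and 2.98 CPM. The groups did not overlap, and the difference was -1.27 (SE 0.29), 2.41-fold lower. The control libraries at P9 held 11.2, 0.905, 1.38, 4.59 and 8.01 CPM, and the *Isl1CKO* libraries ranged from 5.77 to 19.1 CPM with a median of 7.78. The groups overlapped, and the difference pointed upwards, 0.91 (SE 0.65). The control libraries 2 and 3 held 6 and 10 counts, and set the low mean of 5.21 CPM ± 4.39 (SD, n = 5). At E14.5 the difference was -0.84 without *Isl1CKO* libraries 3, 4 and 5, which carried the most macrophage transcripts (50.4 to 104 CPM beside 29.3 to 47.0 CPM in controls). These libraries also held the least *Sorcs1* of their group, so leaving them out lessens the difference in any case. Leaving out 1 library at a time gave -1.40 to -1.11 at E14.5. The part of macrophages in the *Sorcs1* values was not tested.

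*Ap1s2* (chrX:163909017-163933666, plus strand) was the most abundant of the 7 at E14.5 and was moderately lower at both ages. At E14.5 it ranged from 287 to 432 CPM in controls with a median of 316, and the *Isl1CKO* libraries held 186, 232, 202, 243 and 203 CPM. At P9 the control libraries held 197, 286, 239.5, 282 and 280.2 CPM, and the *Isl1CKO* libraries ranged from 124 to 195 CPM with a median of 132. The groups were separate at both ages, at P9 only just. The differences were -0.63 (SE 0.11) and -0.82 (SE 0.16), 1.55-fold and 1.77-fold lower. With total counts alone the P9 difference shrank to -0.16.

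**Figure D4:**
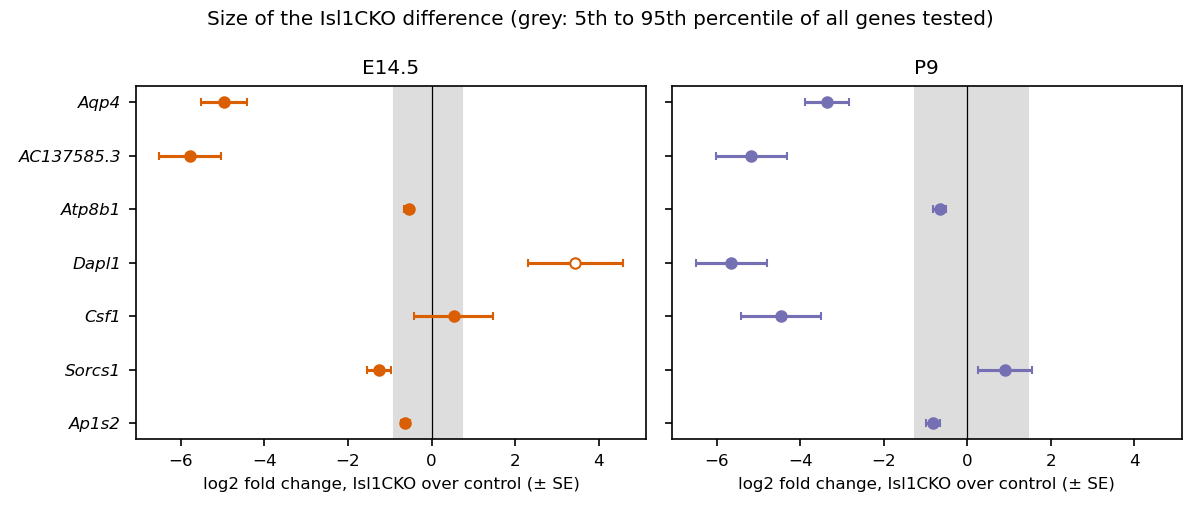
Log2 fold change of *Isl1CKO* over control (± SE) for the 7 chosen genes at E14.5 and P9, with the 5th to 95th percentile of all genes tested in grey (-0.89 to 0.72 at E14.5, -1.26 to 1.45 at P9). *Atp8b1* and *Ap1s2* lie within the grey band at both ages, and the open circle is *Dapl1* at E14.5, which did not pass the filter.

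Per length of exon, the order of the 7 genes changed with age and genotype. In controls at E14.5 *Ap1s2* led with 66.5 ± 10.7 CPM per kb (SD, n = 6), followed by *Atp8b1* with 18.3 ± 2.32 and *AC137585.3* with 5.95 ± 2.44. *Sorcs1* (1.53 ± 0.424) and *Aqp4* (1.01 ± 0.637) came next and did not differ beyond their spread, nor did *Dapl1* (0.154 ± 0.204) and *Csf1* (0.123 ± 0.139) at the end. In controls at P9 *Dapl1* led with 156 ± 82.4 CPM per kb (SD, n = 5), ahead of *Ap1s2* (51.8 ± 7.73), *Atp8b1* (39.4 ± 4.97) and *Aqp4* (10.9 ± 3.90). In *Isl1CKO* cells at P9 *Ap1s2* (29.4 ± 5.69) and *Atp8b1* (25.1 ± 5.06; SD, n = 6) did not differ beyond their spread, and *Dapl1* (3.06 ± 3.85), *Sorcs1* (1.16 ± 0.618) and *Aqp4* (1.06 ± 0.642) came next and did not differ beyond their spread.

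The differences with age rest on the same libraries as the choice: a gene picked for a low *Isl1CKO* level at P9 needs a control level above it. They are therefore given for the 7 genes as a description, without a test. From E14.5 to P9, 15.8% of 17265 genes rose and 15.2% fell in controls (2720 and 2625 genes; 605 and 10031 with total counts alone). In controls *Dapl1* was higher at P9 by 9.85 on the log2 scale (SE 1.11), a size that depends on the fit because the E14.5 libraries held 10 counts in all. *Csf1* was higher by 4.69 (SE 1.04), *Aqp4* by 3.43 (SE 0.51) and *Atp8b1* by 1.11 (SE 0.13). *Ap1s2* differed by -0.36 (SE 0.14), *AC137585.3* by -0.65 (SE 0.68) and *Sorcs1* by -1.30 (SE 0.51). With total counts alone the *Atp8b1* value turned to -0.061, as the median of all genes moved to -1.21.

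In *Isl1CKO* cells 16% of genes rose with age and 13.7% fell. This balance of 2758 higher and 2366 lower genes turned over with other scalings, to 2012 and 3356 when the 8 hormone genes were left out of the totals and to 1218 and 5499 with total counts alone. *Aqp4* was higher at P9 by 5.02 (SE 0.65), starting from 0.194 CPM, and *Atp8b1* by 1.00 (SE 0.14). *Ap1s2* differed by -0.55 (SE 0.14) and *Sorcs1* by 0.87 (SE 0.50). The values of *Dapl1* (0.81, SE 0.84), *Csf1* (-0.30, SE 0.98) and *AC137585.3* (-0.10, SE 0.84) were no larger than their SE.

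Relatives and partners of the 7 proteins, 101 genes in all, were listed by protein family and complex. Few of them changed. At E14.5, 77 were tested and 0 passed an adjusted p of 0.05 in edgeR, with 11 at an unadjusted p under 0.05, and 1 passed with DESeq2 and 1 with limma, in both cases *Eif5a*, a translation factor gene (0.23 in each). At P9, 73 were tested, 2 rose and 1 fell, a share of 4.11% beside 4.81% of all genes. The median log2 fold change was 0.07 at E14.5 and -0.13 at P9, beside -0.0045 and 0.0225 over all genes.

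Of the 10 genes that anchor AQP4 in the membrane or act with it, 8 were tested and 2 rose at P9. *Dmd*, the gene of dystrophin, which links the cytoskeleton to the membrane complex, went from 7.90 CPM ± 4.92 (SD, n = 5) to 83.4 CPM ± 13.1 (SD, n = 6), a log2 fold change of 3.39 (SE 0.38; edgeR adjusted p = 9.45e-05). *Dtna*, the gene of the dystrophin partner dystrobrevin alpha, went from 1.22 to 15 CPM (3.59, SE 0.91; edgeR adjusted p = 0.0343), a call lost with limma (adjusted p = 0.248), without the filter and in 7 of 11 fits that left out 1 library. The *Dmd* difference was wider at P9 than at E14.5 (by 3.11, SE 0.39; edgeR adjusted p = 7.94e-05), as a test between the ages found in either direction for 2.08% of all genes. Of the 11 other aquaporins 2 were tested at E14.5 and 1 at P9, *Aqp11*, which differed by 0.85 at P9 (edgeR adjusted p = 0.0645), and the rest were too scarce.

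Of 17 flippase genes and their partners, *Atp8a1*, a further flippase gene, fell at P9, from 23.1 to 2.14 CPM (-3.42, SE 0.64; edgeR adjusted p = 0.00559). *Atp8b2*, a close relative of *Atp8b1*, differed by -0.15 and 0.33 (edgeR adjusted p = 0.936 and 0.791), and *Tmem30a*, the shared beta subunit, by -0.06 and 0.26 (edgeR adjusted p = 0.800 and 0.458). None of the 9 tested relatives of DAPL1 and factors of dormant ribosomes changed at P9, *Dap* included (-0.25; edgeR adjusted p = 0.394). The CSF1 receptor gene *Csf1r* averaged 0.746 and 3.47 CPM at E14.5 (2.21; edgeR adjusted p = 0.357) and did not pass the filter at P9. *Il34*, the other ligand of this receptor, and *Sorcs3* passed the filter at neither age.

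Among 15 tested VPS10 receptors and retromer genes none changed. *Sorcs2* differed by -0.11 at E14.5 and 1.86 at P9 (edgeR adjusted p = 0.928 and 0.203), the latter past the threshold with total counts alone. All 25 genes of AP complexes were tested and none changed at either age. The other small subunits of AP-1, *Ap1s1* (0.07 and -0.34) and *Ap1s3* (-0.98 and 0.36), did not pass the test (edgeR adjusted p = 0.859, 0.654, 0.279 and 0.850).

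**Figure D5:**
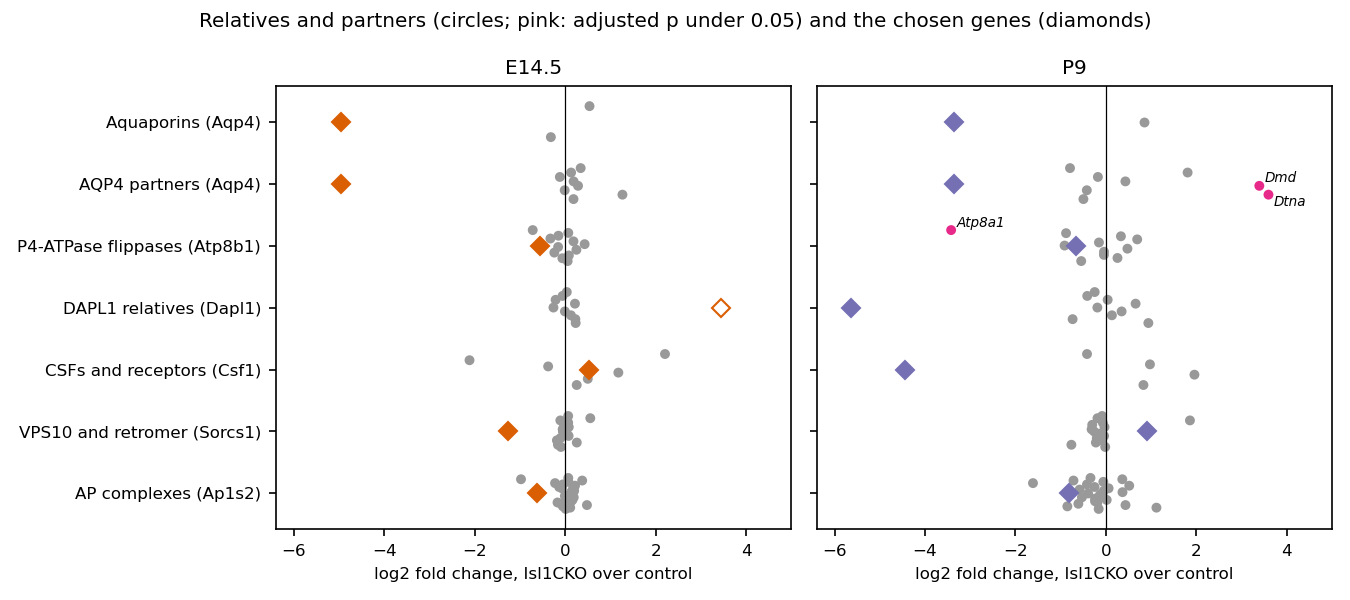
Log2 fold change of *Isl1CKO* over control at E14.5 and P9 for each tested gene of 7 lists of relatives and partners (circles) and for the chosen gene the list belongs to (diamonds, open where it did not pass the filter). Pink circles passed an adjusted p of 0.05: *Atp8a1* at -3.42, *Dmd* at 3.39 and *Dtna* at 3.59, all at P9.

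Genes beside the other members were tested too. Around *Aqp4*, 3 genes within 500 kb were tested at E14.5 and 2 at P9 and none changed, *Kctd1* and, at E14.5 alone, *Chst9* being the nearest. Around *Dapl1*, which lies 2969.5 kb before *Gcg* on chromosome 2, 4 were tested: *Pkp4*, a plakophilin gene, fell at E14.5 (-0.95, SE 0.19; edgeR adjusted p = 0.0235) and differed by -0.55 at P9 (edgeR adjusted p = 0.0845), *Ccdc148* fell at E14.5 (-1.05, SE 0.22; edgeR adjusted p = 0.0269), and *Wdsub1* rose at P9 (1.63, SE 0.24; edgeR adjusted p = 0.000899). Each of the E14.5 calls was lost in 3 or 4 of 11 fits that left out 1 library. *Tanc1*, nearest on the far side of *Dapl1*, did not change.

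Around *Csf1*, 23 genes were tested at E14.5 and 21 at P9 and none changed. *Sorcs1* had no tested gene within 500 kb, and its nearest tested neighbour on the right, 1585.7 kb away, was the insulin gene *Ins1*, which fell at P9 (-1.72, SE 0.22; edgeR adjusted p = 0.000356). On the X chromosome *Zrsr2*, a splicing factor gene 1.8 kb from *Ap1s2*, did not change (0.07 and -0.14; edgeR adjusted p = 0.917 and 0.815). *Rnf138rt1*, on its other side, fell at both ages (-1.29, SE 0.16, and -1.39, SE 0.32; edgeR adjusted p = 0.000844 and 0.0208). Only uniquely mapped reads were counted, so any that match *Rnf138rt1* and its relative *Rnf138* alike are missing, which makes its level uncertain. The P9 call was lost with total counts alone and without control library 3 or 5.

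The genes whose course over the 22 libraries was most like each member were found by the root-mean-square difference of centred log2(CPM + 1), over 17264 genes. They are named as a description. For *Atp8b1* these were *Tshz1* (0.211), *Ank* (0.258) and *Alyref* (0.273), and for *Ap1s2* they were *Immp1l* (0.229), *Hepacam2* (0.241) and *Tmem206* (0.274), on a scale where the members themselves varied by 0.608 and 0.490. For *AC137585.3* they included *Gm43230* (0.704) and *Tmsb15b2* (0.779), the latter of which differed by -1.71 and -2.75 at the 2 ages. For *Csf1* they were *Ero1lb* (0.815), *Kcnj12* and *Fkbp1b*, which differed at P9 by -2.53, -5.14 and -2.49. For *Dapl1* they were *Prss53* (1.09), *Gpr158* (1.14) and *Rnf182* (1.23), beside its own variation of 2.58, and for *Aqp4* they were *Dgkg*, *Phactr1* and *Rpia* (1.00 to 1.01), beside 2.08. *Sorcs1* had no close match: *Eif4enif1* was nearest at 0.560, beside its own variation of 0.859.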

How the data were processed

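RNA of 22 libraries, 100 sorted tdTomato+ cells each, was analysed from 2 tables of raw counts per Ensembl gene deposited by the authors, 1 table for each age. Per the submitters' notes and the study's methods, the authors trimmed reads with cutadapt 1.18 and Trimmomatic, removed ribosomal reads with Bowtie 1.2.2 and SortMeRNA, used STAR 2.7.0c for mapping to GRCm38, and deposited Rsubread counts of uniquely mapped reads per gene. The library kit does not mark strand. Genes with fewer than 10 counts in all are absent from a table. Symbols, positions and exon lengths came from GENCODE M21, which held 27078 of the 27124 IDs in the embryonic table and 27456 of the 27504 in the postnatal one.

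The quasi-likelihood test of edgeR 4.0.16 was run in R 4.3.3 (TMM, filterByExpr, Benjamini-Hochberg adjustment over all genes tested, threshold 0.05), each age in a fit of its own and the age comparison in 1 fit of 4 groups over 17265 genes, from which the 7 genes are given without p-values. SE is the log2 fold change divided by the square root of F. The script was tested on simulated data. CPM was scaled over all 22 libraries, and log2 values carry a pseudocount of 1. At a depth of 8477482 to 13580985 counts per library, levels far below 1 CPM rest on a few counts. The 7 genes, the lists of relatives and markers and the tests were chosen with earlier results of these data known. Named are the 7 genes with every library or their range, *Isl1*, relatives past the threshold or closest in sequence family, the nearest tested neighbours, those called within 500 kb, and the 3 genes most alike in course, of which 1 is not reported here. Further relatives and markers named as examples were chosen after their values were seen. Alternatives were other scalings, no filter, DESeq2 1.42.0, limma 3.58.1 with voom, a replicate block and leaving out each library. No 2 libraries of a group agreed within sampling noise.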

Additional observations from a re-analysis of the deposited data

Results flagged for a closer look

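Among 32 sets of libraries (the 7 genes and *Isl1* in 4 groups), 3 held a library far from the others by Dixon's test at 95%, which flags about 1 set in 20 by chance. *Csf1* in *Isl1CKO* cells at P9 was 3.26 CPM in library 2, where the next highest library had 0.431 CPM. *Ap1s2* in controls at E14.5 was 432 CPM in library 4, and *Isl1* in *Isl1CKO* cells at E14.5 was 550.2 CPM in library 5.

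The difference between *Isl1CKO* and control cells itself differed between the ages, P9 minus E14.5 on the log2 scale, for *Isl1* (1.57, SE 0.24; edgeR adjusted p = 0.000717), *Dmd* (3.11, SE 0.39; edgeR adjusted p = 7.94e-05), *Atp8a1* (-2.70, SE 0.68; edgeR adjusted p = 0.0353, above 0.05 without 14 of the 22 libraries in turn) and *Wdsub1* (1.39, SE 0.27; edgeR adjusted p = 0.00649). Over all genes 2.08% did so. For *Sorcs1* every *Isl1CKO* library lay below the control mean at E14.5 and above it at P9, a difference of 2.18 that was not tested because both effects had served for the choice.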

How the results depend on the processing

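For the 7 genes, 232 of 242 refits of the *Isl1CKO* differences moved by less than the spread between libraries and none changed sign. With total counts alone the calls rose at P9 to 3962 (3811 higher, 151 lower; 671 with TMM, 372 higher and 299 lower), to 10636 with age in controls, to 3180 (3090 higher, 90 lower) for the difference between ages (359, 212 higher and 147 lower; 165 and 239 when the 8 hormone genes were left out of the totals) and to 19 and 1 relatives at P9 and E14.5. The DESeq2 test gave 653 genes at E14.5, 1677 at P9, 924 for the difference between ages, 7 relatives at P9 and 1 at E14.5. At E14.5 1 relative passed when the 8 hormone genes were left out of the library totals, and 1 with limma. Without *Isl1CKO* libraries 3, 4 and 5, chosen after seeing the data, 42 genes changed at E14.5, beside 228.

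Replicate numbers are shared by the groups, but same-numbered libraries did not deviate together (correlations -0.0514 to 0.0536 over 10 pairs, none over 0.1), so they share only a number. With the replicate block 134 genes changed at E14.5, 333 at P9 and 173 for the difference between ages, with 1 relative at E14.5 (*Kit*) and no call of *Dtna* at P9, and not every library correlated best with its own number. The block turned *Dapl1* with age in *Isl1CKO* cells to -0.082, limma turned *AC137585.3* there to 0.51, and total counts alone turned *Atp8b1* with age in controls to -0.061.

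Leaving out 1 library gave 114 (without *Isl1CKO* library 5) to 229 genes at E14.5, 467 to 682 at P9, 219 (without *Isl1CKO* E14.5 library 1) to 483 for the difference between ages, 4755 to 5649 and 4331 to 5243 with age in controls and *Isl1CKO* cells, and 0 to 1 and 2 to 4 relatives. With age in *Isl1CKO* cells *AC137585.3* ranged from -0.55 to 0.59 and *Csf1* from -1.76 to 0.11. Levels under 1 CPM rest on a few counts, which limits *AC137585.3*, *Dapl1* and *Csf1*, and *Aqp4* in *Isl1CKO* cells at E14.5. *Dapl1* at E14.5 did not pass the filter in most settings, and the value without the filter was 3.44.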
